A study of Triticum aestivum with 12 samples.

Results

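The genes described here are the actins and the actin-binding proteins, other than the formins, that the study collected for wheat (Triticum aestivum): 93 gene models out of 266760 in each count table. They were taken from the study's own list of 108 actin-related gene models by leaving out its 15 formins. The rule for this choice uses no measured value, but it was made with earlier results of these data known, those of the formins included. The list names 21 actins, 25 actin-depolymerizing factors (ADFs), 17 villins, 15 fimbrins, 9 profilins, 3 capping protein alpha subunits and 3 capping protein beta subunits. RNA was sequenced from anthers of main spikes of 2 winter wheats, ‘Mv 17-09’, taken by the study as heat sensitive, and ‘Ellvis’, taken as heat tolerant. The 4 groups were heat-stressed ‘Mv 17-09’ anthers (35 °C for 24 h from the day before meiosis began), control ‘Mv 17-09’ anthers, heat-stressed ‘Ellvis’ anthers and control ‘Ellvis’ anthers, with 3 libraries in each. Heat-stressed anthers were collected when the treatment ended, and control anthers came from untreated plants of the same developmental stage. No transgene or mutant allele was involved, so the cultivars differ across their whole genomes. The methods call the libraries biological replicates and the labels say nothing further, so p-values cover no more than the spread from library to library. Whole anthers hold meiocytes, tapetum and wall layers together, and fewer cells of a type cannot be told apart from less RNA per cell.

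Actin exists as monomers and as polar filaments that grow mainly at their barbed ends. Profilin binds monomers and delivers them to growing ends, ADF severs and depolymerizes older filaments, and capping protein, a heterodimer of an alpha and a beta subunit, closes barbed ends to growth. Villins bundle, cap and sever filaments, and fimbrins crosslink them into bundles. In meiocytes actin filaments surround the nucleus and the spindle and take part in chromosome movement and in the phragmoplast at division. Bread wheat has A, B and D genomes, so most of these genes come as homoeologous copies, and reads of near-identical copies can be split between them in ways that the sources used here do not describe.

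Library totals lay between 9336312 and 20846135 counts in 11 libraries, while ‘Ellvis’ control replicate 1 had 1831675. That library stood apart in other ways as well. The 93 genes together made up 0.113% of its counts, against 0.182% in each of the other ‘Ellvis’ control libraries, and the biological coefficient of variation within the ‘Ellvis’ control group was 0.409, against 0.0851 to 0.126 within the other groups. Counts of genes called in each heat comparison are given with and without it. The anther label was checked with 34 gene models of sporopollenin synthesis, which mark the tapetum, and 34 models of meiotic prophase genes. Tapetum markers summed to 5267.5 to 6867 counts scaled to a common library total, the CPM used throughout, in heat-stressed ‘Mv 17-09’, against 21505 to 24271 CPM in its controls. In ‘Ellvis’ they summed to 16727 to 19536 CPM after heat stress, against 36198, 17361 and 18632 CPM in control replicates 1, 2 and 3. Prophase markers summed to 163 to 179 CPM in heat-stressed ‘Mv 17-09’ and 163 to 189 CPM in its controls, and to 185 to 186 CPM in heat-stressed ‘Ellvis’, against 138, 230.1 and 232 CPM in its controls. Both marker lists gave counts in every library.

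Of the 93 genes, 66 had enough counts to be tested. A gene that passed this filter through 1 high group was in part chosen for being high there. All 17 villins and all 6 capping protein subunits passed, as did 18 of 21 actins, 10 of 15 fimbrins, 12 of 25 ADFs and 3 of 9 profilins. Of the 27 genes left out, 24 had at least 1 count, and none exceeded 1.69 CPM in a library, a level that equals 3 counts in ‘Ellvis’ control replicate 1. The ADF6-like and ADF9-like copies on chromosome 2D and the profilin-2-like copy on 3D had 0 counts in all libraries, which allows a level of up to 0.0186 CPM over the 12 libraries together, counting error only. The untested ADFs included every ADF1, ADF6 and ADF9 model, and the untested profilins included every profilin-2 model. Most profilin counts came from the profilin-1-like copy on 7A in every library.

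Summed over each family, the 93 genes kept a similar total in ‘Mv 17-09’, with 1564 to 1642 CPM after heat stress and 1599.5 to 1657 CPM in controls. In ‘Ellvis’ the total was 1373, 1411 and 1436 CPM after heat stress, against 1168, 1870 and 1885 CPM in control replicates 1, 2 and 3. The heat-stressed ‘Ellvis’ anthers lay below 2 of their controls and above the shallow library. The 3 capping protein alpha copies summed to 16.7, 18 and 18.2 CPM in heat-stressed ‘Mv 17-09’, against 26.4, 29.1 and 26.1 CPM in its controls, so the groups did not overlap. Capping protein beta summed to 15.4, 16.8 and 17.3 CPM against 23.9, 21.8 and 20.4 CPM in the same groups. The fimbrin sum ran the other way, at 224, 218 and 207 CPM in heat-stressed ‘Mv 17-09’ against 199, 194 and 174 CPM in its controls. Not all fimbrins rose with it. Fimbrin-4 on 6A had a mean of 86.0 CPM after heat stress against 55.7 CPM in controls, and the 6B copy 58.9 against 52.3 CPM. The 6D copy had a lower mean after heat stress, at 36.5 against 41.8 CPM, and so did the fimbrin-2-like copies on 3A, 3B and 3D. The family sums add CPM of genes of different length and are compared between libraries only.

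**Figure D1:**
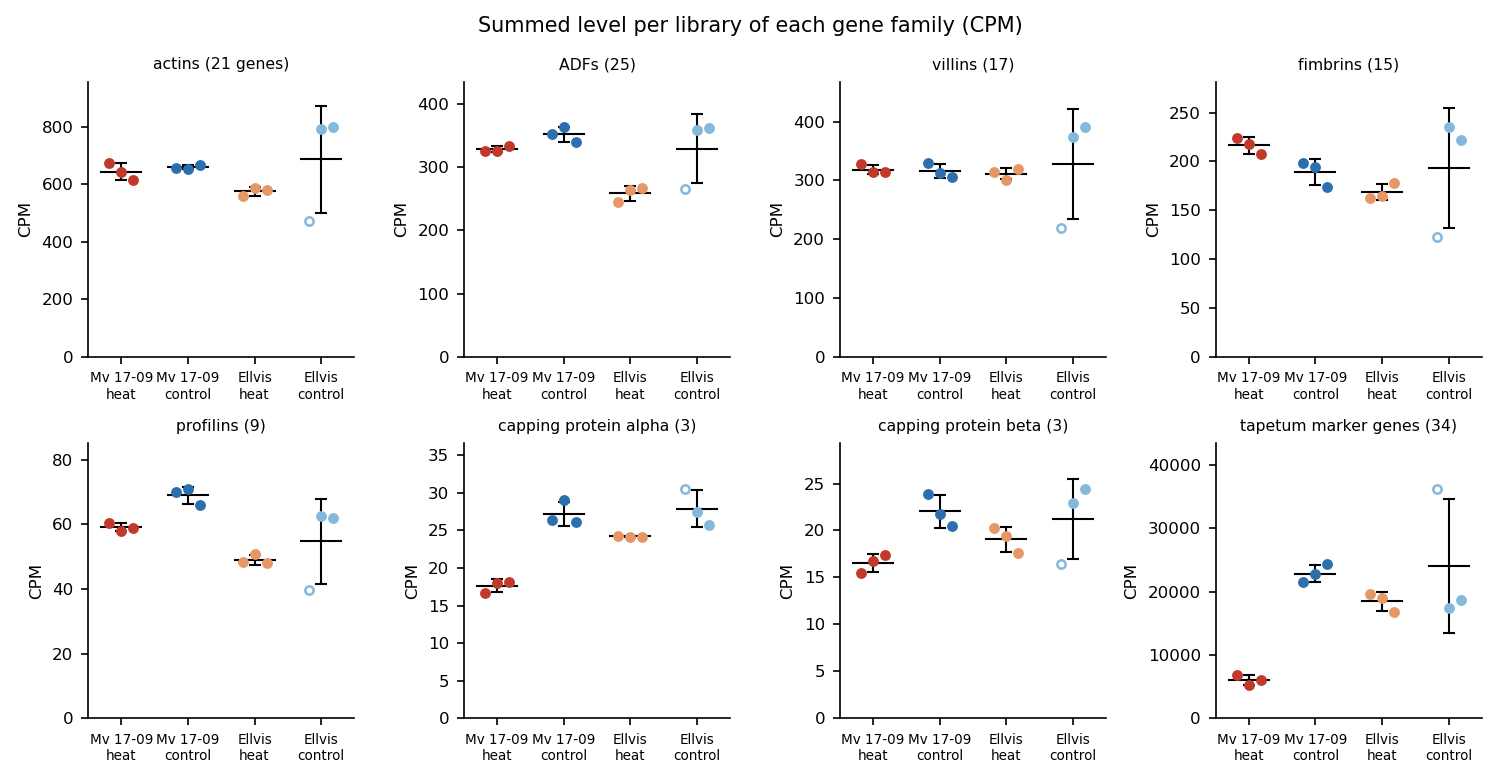
Summed CPM of each family in every library, by group, with tapetum marker genes in the last panel. Points are libraries, bars are the mean and SD of 3 libraries, and the open point is ‘Ellvis’ control replicate 1. Both capping protein subunits are lower in heat-stressed ‘Mv 17-09’ (16.7 to 18.2 CPM for alpha) than in its controls (26.1 to 29.1 CPM), while villins overlap.

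After heat stress in ‘Mv 17-09’, 4 of the 66 tested genes rose and 1 fell at least 2-fold (edgeR quasi-likelihood test, adjusted p under 0.05). That is 7.58% of them, against 11.6% of all 70527 genes tested (4.67% higher and 6.93% lower). Without the fold limit 6 genes passed higher and 5 lower, 16.7% of the 66, against 20.6% of all genes (8.91% higher and 11.7% lower), and 33 of the 66 estimates lay above 0 and 33 below. The median log2 fold change of the 66 genes was 0.00, the same as over all genes. Libraries did not overlap for 20 genes higher and 16 genes lower, or 30.3% and 24.2% of the 66, where 20.9% and 23.4% of all genes separated so. With library totals as the only scaling, which moved the median of all genes by 0.10 on the log2 scale, 5 genes rose and 0 fell at 2-fold, and 10 and 4 passed without the fold limit.

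The gene that fell was the capping protein alpha copy on chromosome 2A (TraesCS2A03G0233100, chr2A:68568301-68575495), which supplied 50.1 to 55.4% of the alpha subunit counts in ‘Mv 17-09’ controls. It had 5.84, 6.08 and 8.56 CPM in heat-stressed ‘Mv 17-09’ anthers, against 13.2, 16.1 and 14.1 CPM in the controls. Every heat-stressed library lay below every control. The study's expression figure of called genes shows this copy. The log2 fold change was -1.09 (standard error 0.17, edgeR adjusted p = 2.32e-04), and it stayed past the p threshold in all 19 alternatives but was under 2-fold, at -0.98, without ‘Mv 17-09’ heat replicate 1 and again with library totals as the only scaling. The copy on 2D, TraesCS2D03G0238000, followed with 3.54, 5.03 and 4.5 CPM after heat stress against 7.04, 6.19 and 6.71 CPM in controls (log2 fold change -0.61, edgeR adjusted p = 0.019, and up to 0.107 without ‘Mv 17-09’ control replicate 1 or 3 or heat replicate 1). That copy also missed the threshold with no low-count filter and with library totals as the only scaling. The copy on 2B, TraesCS2B03G0320600, had 7.30, 6.92 and 5.14 CPM against 6.10, 6.77 and 5.34 CPM and did not pass (edgeR adjusted p = 0.812). The 2B copy thus made up 28.2 to 43.8% of alpha subunit counts in heat-stressed ‘Mv 17-09’, against 20.4 to 23.3% in its controls.

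Of its partner, the beta subunit, 1 copy passed. On chromosome 4A, TraesCS4A03G0375900 had 5.94, 4.82 and 5.57 CPM in heat-stressed ‘Mv 17-09’, against 10.3, 8.29 and 7.88 CPM in controls, with a log2 fold change of -0.69 (standard error 0.16, edgeR adjusted p = 0.0062, 0.00122 to 0.0438 over 19 alternatives). The copies on 4B and 4D had log2 fold changes of -0.18 and -0.34 and did not pass (edgeR adjusted p = 0.542 and 0.241), so that all 3 estimates lay below 0. No test set the copies of either subunit against each other. In the same libraries 29 of 32 tested tapetum markers fell at least 2-fold, with a median log2 fold change of -2.06, and the part of the tapetum in the capping protein values was not tested.

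The 4 genes that rose at least 2-fold in ‘Mv 17-09’ came from 4 families and were all scarce. The actin-7-like copy on 3A (TraesCS3A03G0891600) had 2.19, 1.57 and 1.39 CPM after heat stress, against 0.805, 0.525 and 0.326 CPM in controls (log2 fold change 1.63, standard error 0.41, edgeR adjusted p = 0.00979). The ADF3-like copy on 5B (TraesCS5B03G1193100) had 3.23, 2.83 and 2.03 CPM, against 1.01, 0.892 and 0.651 CPM in controls (log2 fold change 1.66, standard error 0.52, edgeR adjusted p = 0.0333). In each of these pairs the groups stood clear of each other. The villin-3-like copy on 7A (TraesCS7A03G1198200) had 1.25, 0.629 and 1.18 CPM, against 0.604, 0.315 and 0.0651 CPM (log2 fold change 1.62, standard error 0.55, edgeR adjusted p = 0.0484). The fimbrin-4-like copy on 7D (TraesCS7D03G0503800) had 0.834, 0.944 and 1.28 CPM, against 0.469, 0.210 and 0.326 CPM (log2 fold change 1.61, standard error 0.48, edgeR adjusted p = 0.0265). At these levels 1 count was worth 0.0525 to 0.107 CPM in ‘Mv 17-09’ libraries, so each value rests on few counts. The actin call ended without ‘Mv 17-09’ heat replicate 1 (adjusted p up to 0.0542), the ADF call with DESeq2 and without any 1 of the 6 ‘Mv 17-09’ libraries (up to 0.124), the fimbrin call without ‘Mv 17-09’ control replicate 2 or 3 or heat replicate 2 or 3 (up to 0.124), and the villin call without any library other than ‘Ellvis’ control replicate 1 and ‘Mv 17-09’ control replicate 1 (up to 0.159). With no low-count filter the fimbrin and villin calls ended as well. The villin call also ended with DESeq2 and with the replicate number as a block.

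Below the 2-fold limit, changes in ‘Mv 17-09’ ran both ways within families. The villin-2-like copy on 4A (TraesCS4A03G0400400) rose, with 5.63, 7.13 and 6.10 CPM after heat stress against 3.69, 3.72 and 3.45 CPM in controls (log2 fold change 0.79, edgeR adjusted p = 0.0071, and 0.0543 without ‘Mv 17-09’ heat replicate 2). Its copy on 4D (TraesCS4D03G0394100) fell, with 7.40, 5.45 and 4.92 CPM against 10.9, 8.55 and 8.40 CPM (log2 fold change -0.64, edgeR adjusted p = 0.0141, and up to 0.0776 without ‘Mv 17-09’ control replicate 1 or heat replicate 2 or 3). For both copies the heat-stressed and control libraries did not overlap. Among actins, the actin-3 copy on 5B (TraesCS5B03G1253800) fell, with 22.7, 19.3 and 14.1 CPM after heat stress against 34.8, 32.2 and 35.0 CPM in controls (log2 fold change -0.86, edgeR adjusted p = 0.00243). Fimbrin-4 on 6A (TraesCS6A03G0751100), the fimbrin with the highest mean CPM, had 90.5, 87.5 and 80.1 CPM after heat stress, against 56.7, 58.8 and 51.6 CPM in controls. Its groups did not overlap, yet it did not pass with all libraries (log2 fold change 0.63, edgeR adjusted p = 0.0708), and without ‘Ellvis’ control replicate 1, which enters the shared estimate of spread, its adjusted p was 5.28e-06 from edgeR. Without that library 11 of 67 genes passed higher and 11 lower in ‘Mv 17-09’ with no fold limit, where 14% and 17.7% of all genes did.

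**Figure D2:**
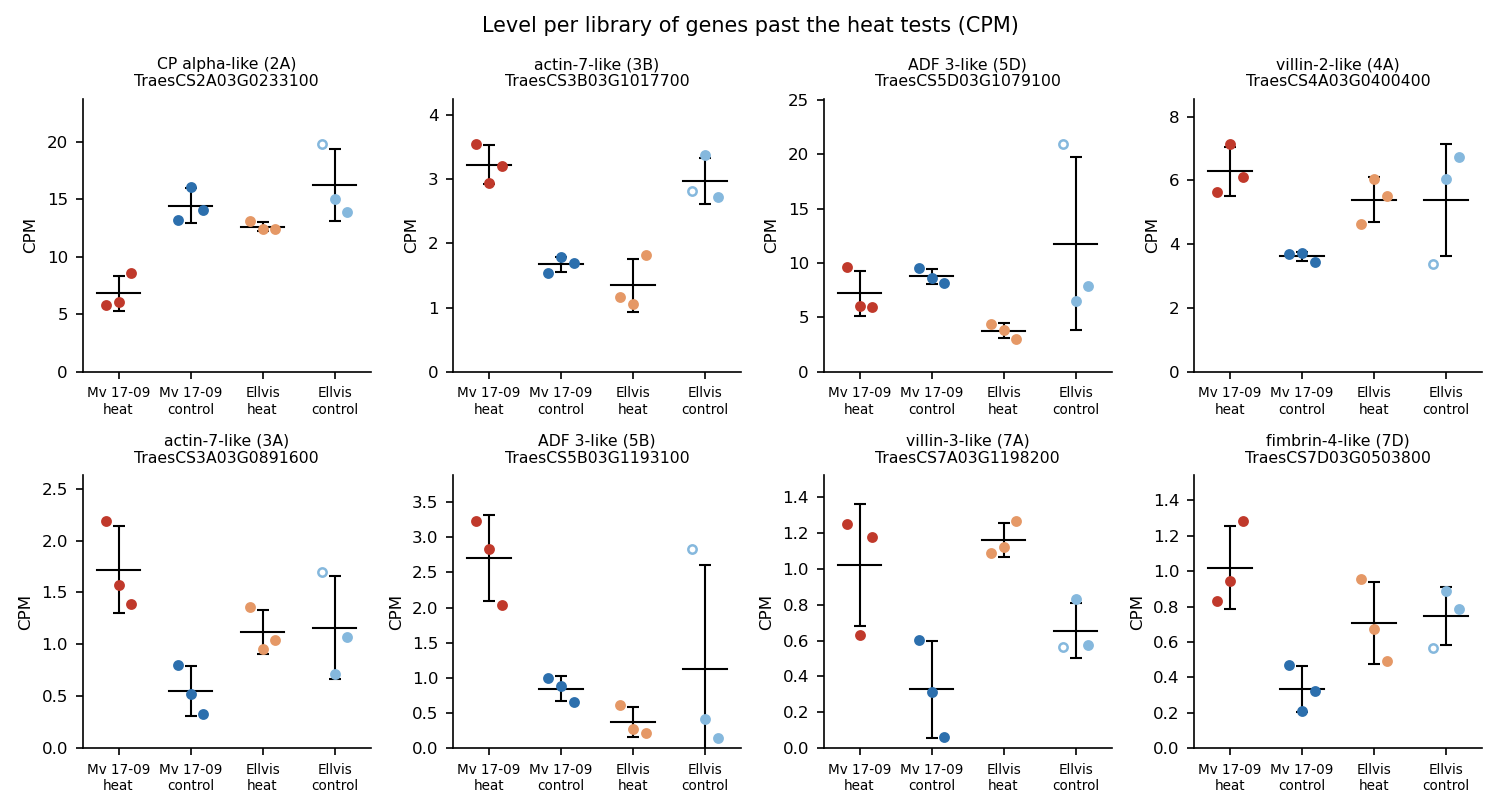
CPM per library of 8 genes that passed a heat test or the test of the difference between cultivars. Points are libraries, bars are the mean and SD of 3 libraries, and the open point is ‘Ellvis’ control replicate 1, with a separate axis from 0 for each gene. The capping protein alpha copy on 2A stands at 5.84 to 8.56 CPM in heat-stressed ‘Mv 17-09’, below its controls at 13.2 to 16.1 CPM.

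In ‘Ellvis’, 0 of the 66 genes rose and 2 fell at least 2-fold after heat stress (edgeR, adjusted p under 0.05), or 3.03%, against 3.62% of all genes (1.98% higher and 1.64% lower). At an unadjusted p under 0.05 there were 21 genes in either direction. DESeq2 called 0 higher and 3 lower. For unadjusted p, DESeq2, limma voom and other scalings no share of all genes was counted, here or elsewhere in the report. Those counts are therefore not set against all genes. Without the fold limit edgeR passed 0 genes higher and 7 lower, where 3.33% of all genes passed higher and 3.71% lower, and the counts were 2 and 6 with library totals as the only scaling. The estimate lay below 0 for 54 of the 66 genes, and their median log2 fold change was -0.26, against 0.00 over all genes. The villins were more mixed than the other families, with 9 estimates below 0 and 8 above, while 17 of 18 actins and 12 of 12 ADFs lay below 0. No test was made of the families against each other.

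The genes that fell at least 2-fold were an actin and an ADF. The actin-7-like copy on 3B (TraesCS3B03G1017700, chr3B:662060304-662063022) had 1.16, 1.06 and 1.82 CPM in heat-stressed ‘Ellvis’, against 2.82, 3.38 and 2.72 CPM in controls (log2 fold change -1.16, standard error 0.26, edgeR adjusted p = 0.014). The ADF3-like copy on 5D (TraesCS5D03G1079100) had 4.43, 3.86 and 3.03 CPM, against 20.9, 6.52 and 7.88 CPM in controls (log2 fold change -1.27, standard error 0.32, edgeR adjusted p = 0.0237). For both genes every heat-stressed library was below every control, and for the ADF the highest control was the shallow library. The actin call ended without ‘Ellvis’ control replicate 2 or heat replicate 1 or 2 (adjusted p = 0.116, 0.0705 and 0.0812), and the ADF call without ‘Ellvis’ heat replicate 2 or 3 (adjusted p = 0.0713 and 0.112). Both ended when the ‘Ellvis’ libraries were fitted alone (adjusted p = 0.104 and 0.132). The ADF call also ended with limma voom. Without ‘Ellvis’ control replicate 1 the ADF gave a log2 fold change of -0.94, under the 2-fold limit (edgeR adjusted p = 0.00219).

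Among smaller changes in ‘Ellvis’, the villin-2-like copy on 4D, which also fell in ‘Mv 17-09’, had 6.0, 5.88 and 5.34 CPM after heat stress, against 9.60, 11.3 and 10.5 CPM in controls (log2 fold change -0.90, edgeR adjusted p = 0.00445, and no more than 0.0446 in any of 19 alternatives). The fimbrin-2-like copies on 3B (TraesCS3B03G0544400) and 3D (TraesCS3D03G0456400) fell by 0.78 and 0.73 on the log2 scale (edgeR adjusted p = 0.00897 and 0.0138). The 3B fimbrin had 6.61, 7.28 and 8.15 CPM after heat stress against 13.6, 12.3 and 12.8 CPM in controls. The shallow library was the highest of these controls. The remaining genes past the p threshold were the actin-3 copy on 4A (TraesCS4A03G0879700, log2 fold change -0.67) and ADF3 on 5A (TraesCS5A03G1126300, log2 fold change -0.89), with edgeR adjusted p = 0.0148 and 0.0289. Each of these 4 calls ended in some of its 19 alternatives. Leaving out single ‘Ellvis’ libraries, the 3B fimbrin missed the threshold without control replicate 3 or heat replicate 1 or 2 (adjusted p up to 0.0665), the 3D fimbrin without control replicate 2 or 3 or heat replicate 2 or 3 (up to 0.111), the actin without any ‘Ellvis’ library but control replicate 1 (up to 0.153), and the ADF without control replicate 3 or heat replicate 1 or 2 (up to 0.143). With no low-count filter the 3B and 3D fimbrins and the actin did not pass (adjusted p = 0.0567, 0.102 and 0.262). With the ‘Ellvis’ libraries fitted alone the 3D fimbrin, the actin and the ADF did not pass (0.0703, 0.149 and 0.0992), nor did the ADF with library totals as the only scaling (0.0547). The villin-4-like copy on 2B (TraesCS2B03G1155800) had the smallest p among genes with a higher estimate, at 11 CPM in each heat-stressed library against 7.34, 7.23 and 9.10 CPM in controls, and did not pass (edgeR adjusted p = 0.0705).

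How many of these genes passed depended on ‘Ellvis’ control replicate 1 and on the method. With every library kept and no fold limit, limma voom with sample weights passed 27 genes lower and 2 higher. DESeq2 passed 10 lower and 0 higher. With ‘Ellvis’ control replicate 1 left out of the edgeR fit, 34 of 67 tested genes passed lower and 1 higher without a fold limit, where 10.4% of all genes passed lower and 8.61% higher, a setting chosen after seeing the data. All 7 genes that passed lower with every library were among the 34. The median log2 fold change was -0.39, and 1 gene fell at least 2-fold, where 2.17% of all genes did. Leaving out any other library gave 1 to 7 genes lower and 0 higher. By family, 15 of 18 actins fell, with log2 fold changes of -1.18 to -0.29, along with 6 of 12 ADFs, 6 of 17 villins, 5 of 11 fimbrins, 1 of 3 profilins and 1 of 3 beta subunits, while 0 of 3 alpha subunits passed. The 3 actin-2 copies fell by 0.56 (1A), 0.51 (1B) and 0.68 (1D) on the log2 scale (edgeR adjusted p = 1.91e-04, 3.33e-04 and 2.59e-05). The villin-4-like copy on 2B was the gene that rose (log2 fold change 0.43, edgeR adjusted p = 0.0317). Heat-stressed libraries lay below both remaining controls for 45 of the 66 genes and above them for 7, where 23.8% and 24.4% of all genes did so, while with all 3 controls the counts were 13 and 5, against 10.2% and 12.7%. The shallow library held high tapetum and low prophase marker sums, as given above, and their part in the members' low level there was not tested.

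**Figure D3:**
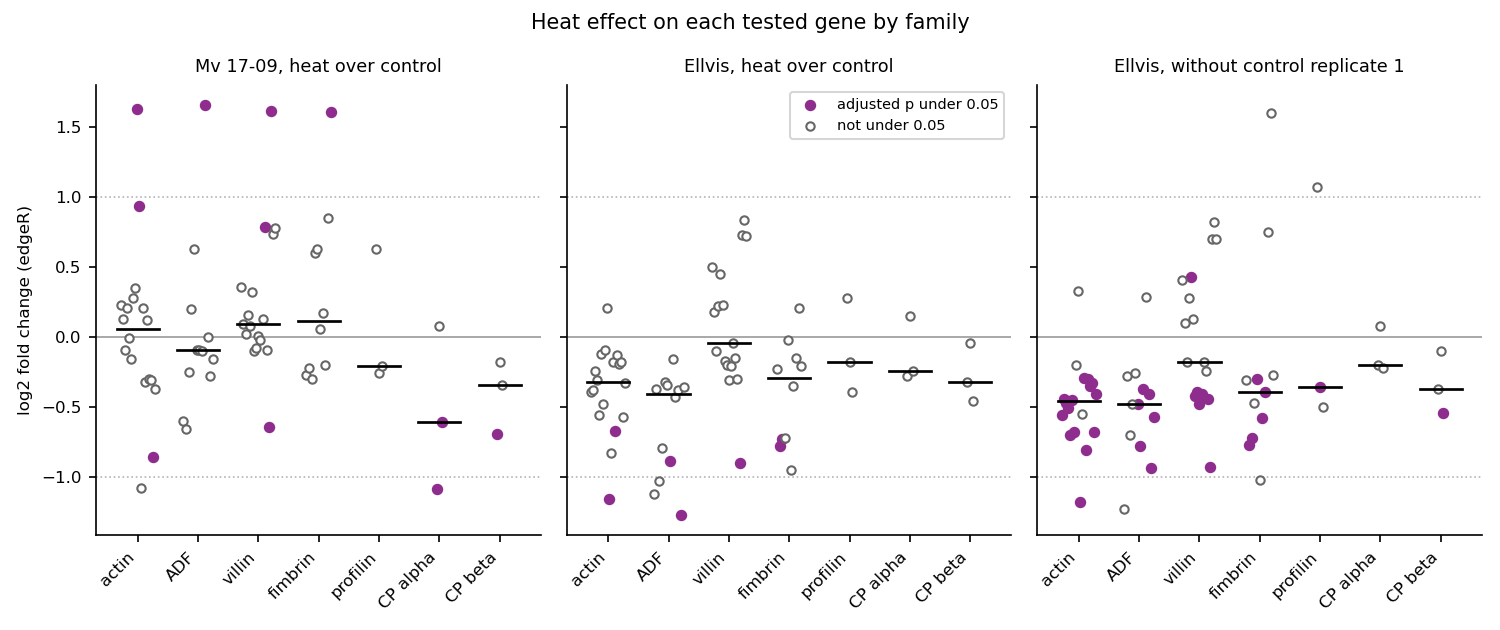
Log2 fold change of heat-stressed over control anthers for every tested gene by family, for ‘Mv 17-09’, for ‘Ellvis’, and for ‘Ellvis’ without control replicate 1. Filled points had an edgeR adjusted p under 0.05, black lines are family medians and dotted lines mark 2-fold. Actins centre near 0 in ‘Mv 17-09’ (median 0.06) and below 0 in ‘Ellvis’ (median -0.32, and -0.46 without the shallow library).

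The difference between the heat effects, ‘Mv 17-09’ minus ‘Ellvis’, was tested as an interaction in the same fit. At 2-fold, 1 of the 66 genes had a higher effect in ‘Mv 17-09’ and 0 a lower one, 1.52% in all, against 1.46% and 3.75% of all genes (5.21% in either direction), with 14 genes at an unadjusted p under 0.05 and 1 higher and 0 lower by DESeq2. The gene was the actin-7-like copy on 3B, which rose in ‘Mv 17-09’ (3.54, 2.94 and 3.21 CPM after heat stress against 1.54, 1.78 and 1.69 CPM in controls, log2 fold change 0.94, edgeR adjusted p = 0.0145, and up to 0.0569 without ‘Mv 17-09’ control or heat replicate 1) and fell in ‘Ellvis’. The rise in ‘Mv 17-09’ also missed the threshold with no low-count filter, and the largest edgeR adjusted p over 19 alternatives was 0.0753. The heat effects on this copy differed by 2.1 on the log2 scale (standard error 0.37, edgeR adjusted p = 0.00241), and the call held in all 18 alternatives with log2 differences of 1.92 to 2.36. Within each cultivar the 2 sets of 3 libraries did not overlap. In the same 3-copy set, the 3B copy gave 48.6 to 57.7% of counts in heat-stressed ‘Mv 17-09’, against 34.8 to 39.5% in its controls, and 25 to 34% in heat-stressed ‘Ellvis’, against 22.7, 50 and 38% in its controls. The 3D copy (TraesCS3D03G0819100) in ‘Mv 17-09’ had 1.56, 0.734 and 0.963 CPM after heat stress against 2.08, 2.20 and 2.67 CPM in controls, and did not pass (edgeR adjusted p = 0.0675). Counts split between such close copies are uncertain for each copy alone.

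Without the fold limit, where 1.92% of all genes passed higher and 4.31% lower, the villin-2-like copy on 4A also differed (log2 difference 0.95, edgeR adjusted p = 0.045). It had 4.63, 6.04 and 5.51 CPM in heat-stressed ‘Ellvis’, against 3.39, 6.05 and 6.73 CPM in controls, so the ‘Ellvis’ groups overlapped, unlike those of ‘Mv 17-09’ given above. This call ended without any 1 library other than ‘Ellvis’ control replicate 1 (adjusted p up to 0.255). It also ended with no low-count filter, with DESeq2 and with the replicate number as a block. The capping protein alpha copy on 2A had 13.1, 12.4 and 12.4 CPM in heat-stressed ‘Ellvis’, against 19.8, 15.1 and 13.9 CPM in its controls (log2 fold change -0.28, edgeR adjusted p = 0.343). The difference of its heat effects was -0.80 and missed the threshold with all libraries (edgeR adjusted p = 0.0512), while without ‘Ellvis’ control replicate 1 it was -0.89 (adjusted p = 0.00311). Of 18 alternatives, that one included, 3 passed, and the log2 differences ran from -1.01 to -0.72. Over the 66 genes the median difference was 0.22, against -0.01 over all genes.

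With every library kept and no fold limit, limma voom with sample weights passed 14 genes with a higher effect in ‘Mv 17-09’ and 1 with a lower one. With ‘Ellvis’ control replicate 1 left out of the edgeR fit, 16 of 67 genes had a higher effect in ‘Mv 17-09’ and 1 a lower one without a fold limit, where 6.03% and 9.87% of all genes did. The 10 actins among the 16 were the 3 actin-2 copies, the 3 actin-7 copies of chromosomes 1, the actin-1 copies on 4A and 4B, actin-3 on 4A and the actin-7-like copy on 3B. Actin-2 on 1D (TraesCS1D03G0456200) had 61.3, 52.4 and 53.9 CPM in heat-stressed ‘Mv 17-09’, against 48.8, 43.1 and 46.2 CPM in controls, and 31.0, 32.0 and 32.4 CPM in heat-stressed ‘Ellvis’, against 26.0, 49.3 and 52.4 CPM in controls. The difference of its heat effects was 0.95 without the shallow library (edgeR adjusted p = 1.66e-05) and 0.76 with it (adjusted p = 0.107). Fimbrin-4 on 6A had 54.6, 57.9 and 59.8 CPM in heat-stressed ‘Ellvis’, against 26.6, 72.4 and 68.4 CPM in controls, with differences of 0.92 (adjusted p = 1.55e-05 from edgeR) and 0.65 (adjusted p = 0.301). Without the shallow library, the gene with the lower effect was the capping protein alpha copy on 2A.

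**Figure D4:**
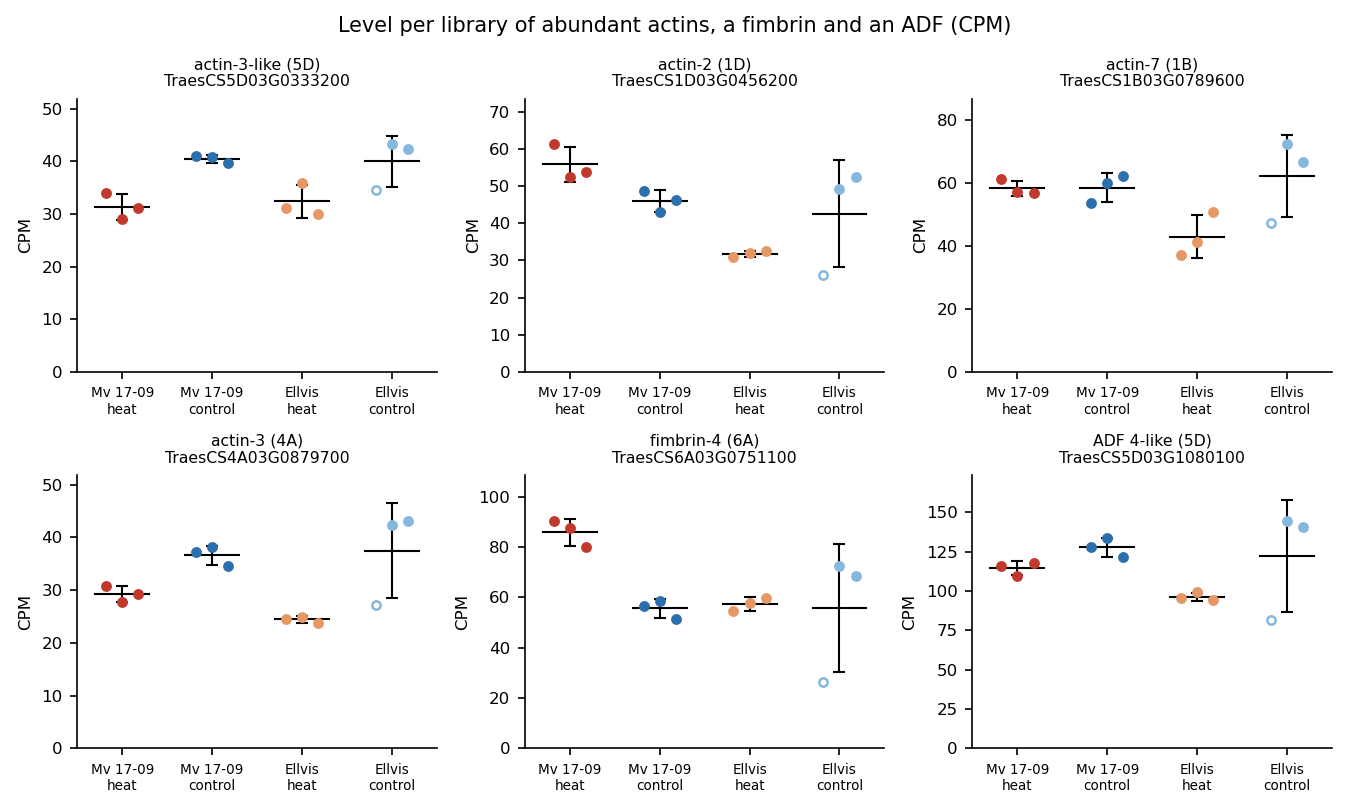
CPM per library of 4 actins, fimbrin-4 on 6A and an ADF4-like gene, by group. Points are libraries, bars are the mean and SD of 3 libraries, and the open point is ‘Ellvis’ control replicate 1, with a separate axis from 0 for each gene. The open point is the lowest of its group in every panel, at 26.6 CPM for fimbrin-4 where the other controls had 72.4 and 68.4 CPM.

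The actin that the study used as a reference gene in quantitative PCR was actin-3-like on 5D (TraesCS5D03G0333200, chr5D:213180572-213183116). It served there together with another reference gene, TaCYC, in RNA samples other than those sequenced. The actin is shown with its primers because its level enters ratios measured against it. The primers, as listed by the study, are in lower case, 5′ to 3′.
TaACT forward: gacaatggaactggaatggtc
TaACT reverse: gtgtgatgccagattttctccat
The gene had 33.9, 29.0 and 31.1 CPM in heat-stressed ‘Mv 17-09’, against 40.9, 40.9 and 39.6 CPM in controls, a log2 fold change of -0.37 (standard error 0.14, edgeR adjusted p = 0.069). In ‘Ellvis’ it had 31.2, 35.8 and 30.1 CPM after heat stress, against 34.5, 43.2 and 42.4 CPM in controls (log2 fold change -0.33, standard error 0.14, edgeR adjusted p = 0.176). Heat-stressed libraries were lower than controls without overlap in ‘Mv 17-09’, while 1 heat-stressed ‘Ellvis’ library lay above the shallow control. Neither change passed in the edgeR fit of all libraries, and both passed without ‘Ellvis’ control replicate 1 (log2 fold changes of -0.38 and -0.41, edgeR adjusted p = 0.00315 and 0.0051). Over 19 alternatives, that one included, the actin passed in 4 for ‘Mv 17-09’ and in 2 for ‘Ellvis’. The difference of its heat effects between cultivars was -0.04 on the log2 scale (standard error 0.19, edgeR adjusted p = 0.964).

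The copies with the highest mean CPM in the remaining families and actin types did not pass the heat tests with all libraries. ADF4-like on 5D (TraesCS5D03G1080100), the ADF with the highest mean CPM, had 116, 109.7 and 118 CPM in heat-stressed ‘Mv 17-09’, against 128, 134 and 122 CPM in controls, and did not pass (edgeR adjusted p = 0.593). Profilin-1-like on 7A (TraesCS7A03G0254100) had 56.1, 52.2 and 52.3 CPM, against 64.3, 66.3 and 62.2 CPM (edgeR adjusted p = 0.293). The villin-2-like copy on 3D (TraesCS3D03G1089600) had 81.5, 81.7 and 73.8 CPM, against 82.0, 80.3 and 77.6 CPM (edgeR adjusted p = 0.97). Profilin and ADF libraries did not overlap between the groups, while the villin libraries did. The copies with the highest mean CPM of the actin-1 and actin-3 types, on 4B (TraesCS4B03G0109500) and 5B (TraesCS5B03G0340400), had log2 fold changes of 0.12 and -0.31 in ‘Mv 17-09’ and of -0.13 and -0.18 in ‘Ellvis’, and none passed. The actin-7 copy on 1B (TraesCS1B03G0789600) had log2 fold changes of -0.01 in ‘Mv 17-09’ and -0.56 in ‘Ellvis’ (edgeR adjusted p = 0.997 and 0.0583).

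Between the cultivars' control anthers, ‘Mv 17-09’ over ‘Ellvis’, 0 of the 66 genes were higher and 2 lower at 2-fold, or 3.03%, against 12.9% of all genes (5.83% higher and 7.02% lower). DESeq2 also gave 0 and 2, and edgeR 10 genes at an unadjusted p under 0.05. The 2 genes were an actin and a villin on chromosome 1B. The actin-97-like copy on 1B (TraesCS1B03G0048800, chr1B:12376413-12379636) had 3.08, 2.31 and 2.73 CPM in ‘Mv 17-09’ controls, against 42.9, 85.7 and 90.6 CPM in ‘Ellvis’ controls (log2 fold change -4.80, standard error 0.25, edgeR adjusted p = 1.70e-09). The villin-1-like copy on 1B (TraesCS1B03G0333400, chr1B:153105446-153111265) had 0.671, 1.10 and 1.17 CPM in ‘Mv 17-09’ controls, against 9.60, 14.3 and 14.5 CPM in ‘Ellvis’ controls (log2 fold change -3.77, standard error 0.22, edgeR adjusted p = 6.71e-09). Both were low in every ‘Mv 17-09’ library and high in every ‘Ellvis’ library, shallow library included, and both calls held in all 19 alternatives.

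Neither copy passed a heat test with all libraries (edgeR adjusted p = 0.876 in ‘Mv 17-09’ and 0.541 in ‘Ellvis’ for TraesCS1B03G0048800, and 0.899 and 0.601 for TraesCS1B03G0333400), though without the shallow library the actin fell in ‘Ellvis’ (log2 fold change -0.47, adjusted p = 7.51e-04). The actin-97-like copy on 1B had 2.29, 2.94 and 2.35 CPM in heat-stressed ‘Mv 17-09’ and 62.6, 63.9 and 64.7 CPM in heat-stressed ‘Ellvis’, and with its 1D copy (TraesCS1D03G0038800) it gave 1.94 to 2.56% of the pair's counts in ‘Mv 17-09’ libraries, against 44.5 to 56.7% in ‘Ellvis’ libraries. The pair summed to 119 to 127 CPM in ‘Mv 17-09’ controls, against 75.7, 193 and 186 CPM in ‘Ellvis’ controls. The 1D copy itself had 117, 117 and 125 CPM in ‘Mv 17-09’ controls, against 32.8, 106.9 and 95.7 CPM in ‘Ellvis’ controls, a difference that did not pass (log2 fold change 0.56, edgeR adjusted p = 0.171). For villin-1 the 1B copy gave 2.28 to 4.74% of the counts of its 3 copies in ‘Mv 17-09’ libraries, against 34.1 to 40.3% in ‘Ellvis’ libraries, and the 3 copies summed to 25.6 to 29.4 CPM in ‘Mv 17-09’ controls, against 24.3, 38 and 38.8 CPM in ‘Ellvis’ controls.

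**Figure D5:**
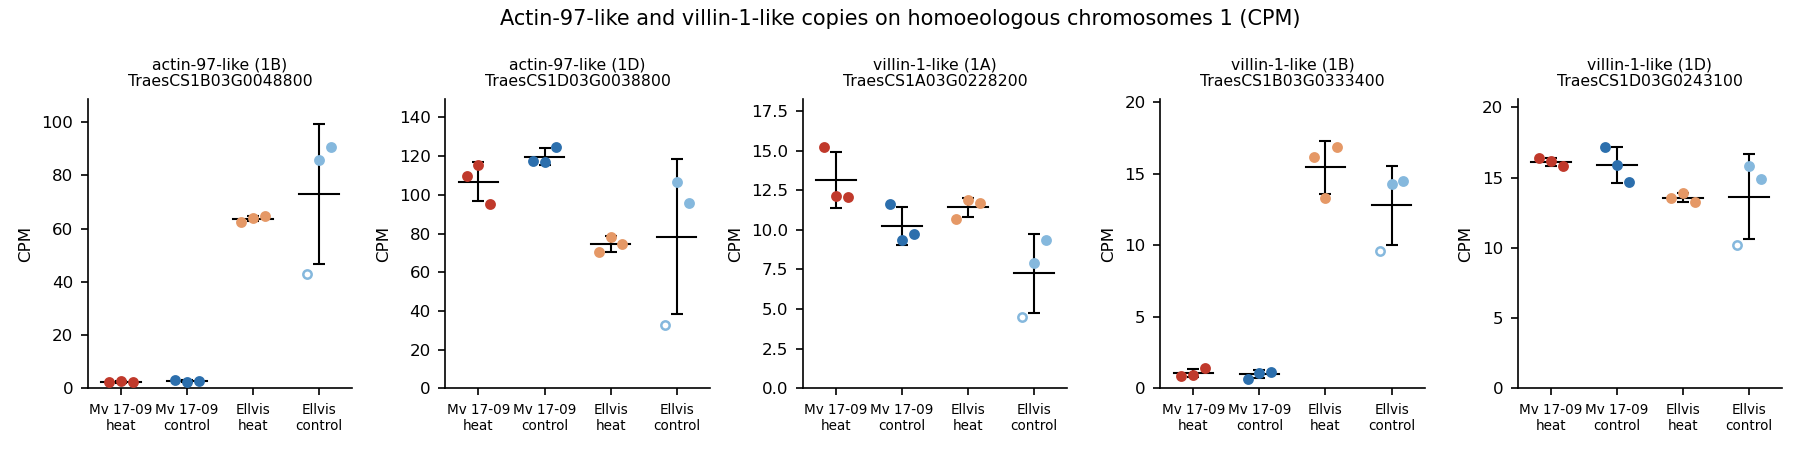
CPM per library of the actin-97-like copies on 1B and 1D and of the villin-1-like copies on 1A, 1B and 1D, by group. Points are libraries, bars are the mean and SD of 3 libraries, and the open point is ‘Ellvis’ control replicate 1, with a separate axis from 0 for each gene. The 1B copies stay at 2.29 to 3.08 CPM (actin) and 0.671 to 1.39 CPM (villin) in all ‘Mv 17-09’ libraries.

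The 2 copies lie in a stretch of chromosome 1B where most genes were lower in ‘Mv 17-09’: of 621 tested gene models on 1B up to the villin-1-like copy, 465 (74.9%) were called lower at 2-fold in ‘Mv 17-09’ controls. The share was 39.1% of 652 models after it up to the ADF10 copy, and 7.16% of 1900 models beyond that copy. Reads of both cultivars were mapped to the same assembly. Lower expression in ‘Mv 17-09’ therefore cannot be told apart here from missing or differing sequence whose reads did not map. The other 3 listed genes on 1B, ADF10 (TraesCS1B03G0580800), actin-2 (TraesCS1B03G0588300) and actin-7 (TraesCS1B03G0789600), lie farther along the chromosome and had log2 fold changes of -0.07, 0.15 and -0.11 between control anthers. Without the fold limit 2 genes passed higher and 5 lower in ‘Mv 17-09’ controls, where 9.25% and 10.2% of all genes did. Beside the 1B genes these were actin-3 on 5B (log2 fold change 0.60) and ADF2-like on 5A (TraesCS5A03G0986900, 0.55), which were higher, and the actin-7-like copy on 3B (-0.85), villin-2-like on 4A (-0.73) and fimbrin-2-like on 3B (-0.52), which were lower. The edgeR adjusted p of these 5 lay between 0.0127 and 0.0342, and each passed in only some of its 19 alternatives. Without the shallow library 3 of 67 genes passed higher and 13 lower with no fold limit, where 13.6% and 14% of all genes did. Control libraries of the cultivars did not overlap for 8 genes higher and 7 lower, where 17.8% and 15.7% of all genes separated so, and the median over the 66 genes was -0.05, against -0.01 over all genes.

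Gene groups next to these in the cytoskeleton gave other counts in the same fits. Of 14 tested formins, which nucleate and elongate actin filaments, 10 fell and 0 rose at least 2-fold in heat-stressed ‘Mv 17-09’, with a median log2 fold change of -1.32, while in ‘Ellvis’ 1 rose and 0 fell (edgeR, with 13 and 6 formins at an unadjusted p under 0.05). Of all genes, 4.67% rose and 6.93% fell at least 2-fold in ‘Mv 17-09’, and 1.98% and 1.64% in ‘Ellvis’. These shares also stand beside the tubulins below. Without ‘Ellvis’ control replicate 1 the formin counts were 0 rising and 12 falling in ‘Mv 17-09’ and 1 and 1 in ‘Ellvis’, and the ‘Ellvis’ median was 0.28 in place of -0.10. In that setting 2.17% of all genes fell at least 2-fold in ‘Ellvis’. No other 2-fold share of all genes is given for it, for formins or tubulins. Of 39 tested alpha- and beta-tubulins, 1 rose and 0 fell at least 2-fold in ‘Mv 17-09’ and 0 changed at least 2-fold in ‘Ellvis’, with medians of -0.02 and -0.06 (edgeR, 14 tubulins in ‘Ellvis’ at an unadjusted p under 0.05). Without the fold limit 6 tubulins passed higher and 5 lower in ‘Mv 17-09’, where 8.91% and 11.7% of all genes did. In ‘Ellvis’ 1 passed higher and 4 lower, where 3.33% and 3.71% of all genes did. Leaving out ‘Ellvis’ control replicate 1 gave, of 40 tested, 13 higher and 12 lower in ‘Mv 17-09’ and 5 higher and 16 lower in ‘Ellvis’ without the fold limit, 2 rising in ‘Mv 17-09’ and 1 falling in ‘Ellvis’ at 2-fold, and an ‘Ellvis’ median of -0.24. Without the fold limit 14% and 17.7% of all genes passed so in ‘Mv 17-09’, and 8.61% and 10.4% in ‘Ellvis’. The tested genes of the 93 had an ‘Ellvis’ median of -0.39 in that setting, below 0 like that of the tubulins. The formins and these 93 genes share 1 list of the study and the same libraries, and no test set them against each other.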

How the data were processed

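Total RNA of anthers was depleted of ribosomal RNA, made into directional libraries and sequenced as paired reads. The authors trimmed and mapped the reads to the IWGSC RefSeq v2.1 wheat assembly in CLC Genomics Workbench after FastQC 0.11.8, and deposited counts per gene model, 1 table per library. How strand, multi-mapped reads and read pairs were treated in counting is not stated. No row outside the gene models was used.

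From the deposited counts, all 12 libraries were fitted together by group with edgeR 4.0.16 (R 4.3.3), using filterByExpr (count at least 10, total at least 15), TMM scaling and the quasi-likelihood test. Benjamini-Hochberg adjustment ran over all 70527 genes tested, a call needed an adjusted p under 0.05 and a 2-fold change, and standard errors are the log2 fold change over the root of F. CPM use the TMM-scaled totals. The procedure was tested on simulated data. DESeq2 1.42.0, limma 3.58.1 voom with sample weights, other scalings, no filter, the study's stricter criteria, fits of the compared groups alone, a replicate block and leaving out each library were tried. Members, families, marker lists and rules were chosen with earlier results of these data known. The genes named are the highest mean CPM of each family or actin type, all called members, the PCR reference actin, the gene of the study's expression figure, the genes on the short arm of 1B, the smallest p in each direction per heat comparison, and their homoeologues. Actin-3 on 4A and 5B, ADF2-like and ADF3 on 5A and the fimbrin-2-like genes were chosen after their values were seen. RefSeq coordinates of the same assembly were joined for 88 of 93 genes. Transcript lengths and proteins were not used here.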

Additional observations from a re-analysis of the deposited data

Results flagged for a closer look

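The heat effect differed between the cultivars for 2 genes by the interaction test. For the actin-7-like copy on 3B (TraesCS3B03G1017700) the effect in ‘Mv 17-09’ minus that in ‘Ellvis’ was 2.1 on the log2 scale (edgeR adjusted p = 0.00241), with the gene higher after heat stress in 3 of 3 ‘Mv 17-09’ libraries than in any control and lower in 3 of 3 ‘Ellvis’ libraries. For the villin-2-like copy on 4A (TraesCS4A03G0400400) the difference was 0.95 (edgeR adjusted p = 0.045), and it passed in 4 of 18 alternatives.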

How the results depend on the processing

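Counts of genes called at 2-fold moved with the settings. Shares of all genes are given above only for the edgeR fit of all libraries and, in part, for that without ‘Ellvis’ control replicate 1. Counts in other settings, here and below, have no such share beside them and are not set against all genes. A count of 0 by the study's criteria is therefore not read as a result on these genes. For heat stress in ‘Mv 17-09’, 4 rose and 1 fell in the report. No low-count filter gave 2 and 2, DESeq2 gave 2 rising, library totals alone gave 0 falling, and the compared groups alone or limma voom gave 2 falling. Without a fold limit 5 fell, and the study's criteria gave 0 and 0. Leaving out 1 library gave 1 to 4 rising and 1 to 2 falling. For heat stress in ‘Ellvis’ the 2 falling genes became 0 with the compared groups alone or the study's criteria, 7 without a fold limit, and 0 to 2 on leaving out 1 library. For the difference of the heat effects the 1 higher gene became 3 with limma voom, 2 without a fold limit and 0 by the study's criteria, and leaving out 1 library gave 1 to 2 higher and 0 to 1 lower, the lower call coming without ‘Mv 17-09’ heat replicate 3. Between controls limma voom gave 1 higher gene, no fold limit gave 2 higher and 5 lower, and leaving out 1 library gave 0 to 1 higher. Without ‘Ellvis’ control replicate 1 and without a fold limit, a setting chosen after seeing the data, the counts higher and lower were 11 and 11 (‘Mv 17-09’ heat), 1 and 34 (‘Ellvis’ heat), 16 and 1 (difference) and 3 and 13 (controls). Why that library moved them was not tested.

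Alternatives were counted for the gene values that passed the p threshold with all libraries. Heat values of the PCR reference actin and of the called capping protein alpha copy were counted whether they passed or not. Of these alternatives, 454 kept direction and side of the threshold, 122 kept direction but lost the threshold, 9 gained it and none reversed. The other gene values in the report, which did not pass, were left out of this count. Nearly all counted values were chosen for having passed, so the absence of reversals is not read as a result. Scaling by library totals alone moved the median of all genes by 0.10 in ‘Mv 17-09’ and 0.11 in ‘Ellvis’ on the log2 scale.

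With the replicate number as a block, 3 genes rose and 1 fell in ‘Mv 17-09’, 0 and 2 in ‘Ellvis’, and the call of villin-3-like on 7A was lost. Correlations of same-numbered libraries' deviations ran between -0.052 and 0.179, and only the ‘Ellvis’ libraries each matched best with their own number, so the numbers were not taken as pairs.

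Depth limits the 27 untested genes and the 4 scarce genes that rose in ‘Mv 17-09’, and 3 counts are 1.69 CPM in ‘Ellvis’ control replicate 1.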
